A study of Homo sapiens with 9 samples.

Results

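CEACAM genes encode adhesion molecules of the immunoglobulin superfamily. The 5 examined here, CEACAM1, CEACAM5, CEACAM6, CEACAM7 and CEACAM19, were taken by symbol from the 58051 genes counted in A431 cells. They were chosen by their counts in these libraries, CEACAM5 and CEACAM6 being far higher in p53 KO cells than in both kinds of cells that keep mutant p53, so their p53 KO values are given below as a description, with no test. Of the 5 genes, 4 had counts and passed the filter on low counts that left 14513 genes for testing, and CEACAM7 had 0 counts in every library.

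A431 is an epidermoid carcinoma cell line that makes mutant p53 from its own gene. RNA was sequenced from A431 parental (mutp53) cells, from A431 Ctrl (mutp53) cells, which received a CRISPR construct with empty vector and keep mutant p53, and from A431 p53 KO cells, which received a GFP CRISPR construct against p53. The Ctrl and p53 KO groups were each a stable line, the labels describe growth as single colonies, and the study thus asks what differs when mutant p53 is removed. Each group had 3 poly(A) libraries, all from cells in DMEM with serum. Nothing states that the libraries of a group came from separate cultures, so p-values measure only the spread between these libraries, and a difference between lines cannot be told apart from a difference in p53.

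Library totals ran from 19783778 to 29840452 counts on genes. All 8 squamous keratinocyte markers examined had more than 3 counts in some library, although KRT14, a basal keratin, had at most 13. Their summed level was 15704 to 18700 CPM in parental, 10315 to 12451 CPM in Ctrl and 14622 to 15236 CPM in p53 KO libraries (CPM, counts scaled by library size). Most of this sum was EGFR, with 169946 to 452758 counts per library, where no other marker had more than 17700. The sum thus mainly follows EGFR. Among 9 intestinal epithelial markers CDX2, CDH17 and FABP1 were at 0, and CDX1 and MUC2 had at most 3 counts. Over all libraries VIL1 and GPA33 had 0 to 4 counts, and LGALS4 and KRT20 0 to 7. The summed level of the 9 ranged from 0.306 to 0.462 CPM in parental, 0.191 to 0.459 CPM in Ctrl and 0.304 to 0.503 CPM in p53 KO libraries. The 6 granulocyte markers had at most 3 counts each, with CEACAM8, ELANE and FCGR3B at 0, and their summed level ranged from 0 to 0.0923 CPM in parental, 0.0351 to 0.0510 CPM in Ctrl and 0 to 0.149 CPM in p53 KO libraries. Of the leukocyte markers PTPRC and CD3E were at 0, while CD14 had 2 to 6, 0 to 3 and 4 to 9 counts and CD68 15 to 28, 22 to 42 and 28 to 40 counts in parental, Ctrl and p53 KO libraries, and their summed level was 0.784 to 1.30, 0.991 to 1.51 and 1.45 to 1.64 CPM. COL3A1, LUM and DCN of 5 fibroblast markers and KDR of 4 endothelial markers were at 0. COL1A1 had 47 to 114 counts and PDGFRB 0 to 4, while PECAM1 had 1 to 13, CDH5 1 to 9 and VWF 0 to 13. The fibroblast and endothelial lists had summed levels of 2.38 to 4.42 and 0.383 to 1.16 CPM over all libraries. Their part in the results was not tested. Ctrl replicate 1 stood apart from the other libraries of its group, with a chi-square per degree of freedom of 38.2 and 50.0 against its replicates, where the other pairs of replicates lay between 5.20 and 16.1.

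CEACAM proteins carry an N-terminal immunoglobulin domain that binds the same or another CEACAM on a neighbouring cell, and several are also docking sites for bacteria. CEACAM5 is carcinoembryonic antigen, a serum marker of colorectal and other carcinomas. CEACAM5, CEACAM6 and CEACAM7 are held in the outer membrane leaflet by a glycosylphosphatidylinositol (GPI) anchor, whereas CEACAM1 spans the membrane and its long splice form recruits the phosphatases PTPN6 and PTPN11. CEACAM19 is a divergent transmembrane member of which less is known. In normal tissue CEACAM5, CEACAM6 and CEACAM7 are best known from the surface of the colon epithelium, and some squamous epithelia and carcinomas also make CEACAM5 and CEACAM6.

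The genes lie on chromosome 19 (GRCh38, GENCODE 44). CEACAM7 (ENSG00000007306) spans 41673303 to 41706976 on the minus strand, CEACAM5 (ENSG00000105388) 41708585 to 41730433 on the plus strand and CEACAM6 (ENSG00000086548) 41750977 to 41772211 on the plus strand. CEACAM7 and CEACAM5 are thus neighbours that point away from each other, with 1.609 kb between their spans, and CEACAM6 follows 20.544 kb after CEACAM5. CEACAM1 (ENSG00000079385) lies further along, at 42507304 to 42561234 on the minus strand, and CEACAM19 (ENSG00000186567) at 44662278 to 44684359 on the plus strand.

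The 250 bases upstream of the RefSeq start are shown for the 4 members that the RefSeq promoter table (GRCh38.p14) held, because CEACAM5 and CEACAM6, which were high in p53 KO cells, can be read there beside CEACAM7, which was at 0. Each runs 5′ to 3′ on the strand of its gene, at chr19:41708376-41708625 (plus) for CEACAM5, chr19:41755280-41755529 (plus) for CEACAM6, chr19:41688271-41688520 (minus) for CEACAM7 and chr19:42528482-42528731 (minus) for CEACAM1. The RefSeq starts lie inside the spans given above, at 41708626 for CEACAM5, 41755530 for CEACAM6, 41688270 for CEACAM7 and 42528481 for CEACAM1. The gap between the spans of CEACAM7 and CEACAM5 is therefore not the distance between these starts. Capitals mark matches to any of 7 motifs searched on both strands.
CEACAM5: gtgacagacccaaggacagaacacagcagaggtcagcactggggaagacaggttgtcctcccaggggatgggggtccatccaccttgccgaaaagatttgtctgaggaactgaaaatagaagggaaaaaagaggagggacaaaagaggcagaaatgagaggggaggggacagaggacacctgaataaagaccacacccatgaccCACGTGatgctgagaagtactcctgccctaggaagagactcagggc
CEACAM6: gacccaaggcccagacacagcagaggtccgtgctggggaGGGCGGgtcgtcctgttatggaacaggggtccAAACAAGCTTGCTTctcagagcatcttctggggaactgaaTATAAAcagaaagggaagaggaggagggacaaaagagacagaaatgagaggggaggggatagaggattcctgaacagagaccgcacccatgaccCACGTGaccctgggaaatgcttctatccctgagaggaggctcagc
CEACAM7: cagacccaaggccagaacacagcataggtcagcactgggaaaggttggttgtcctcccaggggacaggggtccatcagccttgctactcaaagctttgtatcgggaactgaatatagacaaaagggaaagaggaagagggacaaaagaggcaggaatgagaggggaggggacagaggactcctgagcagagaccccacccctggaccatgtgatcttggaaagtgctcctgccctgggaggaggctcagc
CEACAM1: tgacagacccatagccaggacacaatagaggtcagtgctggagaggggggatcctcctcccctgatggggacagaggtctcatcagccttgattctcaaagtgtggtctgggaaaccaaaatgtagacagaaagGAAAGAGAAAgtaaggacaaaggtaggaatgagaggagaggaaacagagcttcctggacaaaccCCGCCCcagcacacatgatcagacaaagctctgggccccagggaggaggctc

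The motifs were TATAAA, the GC box GGGCGG, the E-box CACGTG bound by USF factors, the AP-1 site TGANTCA, the interferon response core (GAAA, any 2 bases and GAAA again), the p53 decamer and the NF-kB site. CEACAM5 held the E-box at positions -46 to -41 from its start and no other motif. CEACAM6 held the same E-box at -45 to -40, together with TATAAA at -139 to -134, a GC box at -211 to -206 and a pair of overlapping p53 decamers at -179 to -170 and -175 to -166. CEACAM1 held a GC box on the opposite strand at -52 to -47 and the interferon response core at -116 to -107, and CEACAM7 held none of the 7.

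Counting from 1 at the first base of the CEACAM5 E-box, the aligned letters differed by C3T in CEACAM7, at -44 to -39, and by G4A in CEACAM1, at -41 to -36, and did not differ in CEACAM6. In all 35116 promoters of this length the E-box was present in 6.34%, TATAAA in 10.7%, the GC box in 42.6%, the interferon core in 3.02% and the p53 decamer in 5.57%. AP-1 and NF-kB sites, which no member held, were in 6.57% and 5.21%. These matches describe letters in a window and say nothing of binding in A431 cells.

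Over their full length, motifs included, the 4 upstream sequences were also alike. CEACAM7 was identical to CEACAM5 at 80.5% and to CEACAM6 at 79.0% of aligned positions, CEACAM5 and CEACAM6 shared 73.6%, and CEACAM1 shared 70.0% with CEACAM7, 67.6% with CEACAM6 and 64.4% with CEACAM5. Against 1900 other promoters of chromosome 19 the medians were 44.2% to 44.9% and the highest single values 52.6% to 54.2%. Among these 4 sequences the one closest to that of CEACAM5 was thus that of CEACAM7, the member with 0 counts.

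CEACAM5, the GPI-anchored carcinoembryonic antigen, was near absent from cells with mutant p53. Its counts were 1, 0 and 2 in the 3 parental libraries, 3, 4 and 2 in the 3 Ctrl libraries and 137, 72 and 58 in the 3 p53 KO libraries. In p53 KO cells this came to 4.60, 2.74 and 2.88 CPM, with a mean of 3.40 ± 1.03 (SD, n = 3), against 0.0435 ± 0.0464 in parental and 0.123 ± 0.0412 in Ctrl cells. All p53 KO libraries were high and none overlapped the 6 others. As these are bulk samples, more cells that make a transcript and more transcript per cell cannot be told apart.

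Within p53 KO cells, replicate 1 was above the other libraries in CEACAM5. Its 95% exact counting interval, 3.86 to 5.43 CPM, did not overlap the 2.14 to 3.45 CPM of replicate 2 or the 2.19 to 3.72 CPM of replicate 3. Intervals of this kind cover counting error only. Summed over libraries, 267 counts in p53 KO cells stood against 3 in parental cells, a ratio of 86.1 after scaling by library (95% counting interval 29.2 to 420), and against 9 in Ctrl cells, a ratio of 28.9 (15 to 63.9). The fitted log2 fold change was 6.24 (SE 0.48) against parental and 4.77 (SE 0.40) against Ctrl cells. A fit in DESeq2 gave larger SEs, 0.88 and 0.57, so the SEs of the main fit may understate the uncertainty at control counts this low. The value against parental cells ranged from 5.66 without parental replicate 2 to 7.16 without parental replicate 3.

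CEACAM6, which is GPI-anchored like CEACAM5 and made by both epithelia and granulocytes, had the same on and off pattern at a slightly lower count. It had 3, 3 and 1 counts in parental, 0, 2 and 1 in Ctrl and 64, 72 and 41 in p53 KO libraries. The p53 KO libraries held 2.15, 2.74 and 2.03 CPM, with a mean of 2.31 ± 0.378 (SD, n = 3), against 0.0921 ± 0.0398 in parental and 0.0361 ± 0.0352 in Ctrl cells. Here the p53 KO replicates lay closer together, and their counting intervals of 1.65 to 2.74, 2.14 to 3.45 and 1.46 to 2.76 CPM all overlapped.

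Summed counts of CEACAM6 were 177 in p53 KO, 7 in parental and 3 in Ctrl cells, which gave ratios of 24.5 (95% counting interval 11.6 to 61.8) and 57.5 (19.4 to 281). The fitted log2 fold changes were 4.54 (SE 0.35) against parental and 5.68 (SE 0.41) against Ctrl cells. Here too the SEs from DESeq2 were larger, at 0.61 and 0.88. The value against Ctrl cells was 5.28 without Ctrl replicate 1 and 6.43 without Ctrl replicate 2. CEACAM5 thus had the larger ratio against parental cells and CEACAM6 the larger against Ctrl cells, but with 3 to 9 counts in the control groups the intervals of the genes overlapped in both comparisons.

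CEACAM7, the third GPI-anchored member, had 0 counts in all 9 libraries. The limit that 0 counts allows, taken as 3 counts, was between 0.101 and 0.153 CPM per library. CEACAM5 and CEACAM6, its nearest relatives on the chromosome, were above that limit in every p53 KO library.

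CEACAM1, the transmembrane member that signals to phosphatases, was present in every library and higher in p53 KO cells by a smaller factor. Parental libraries had 105, 96 and 75 counts, Ctrl libraries 52, 119 and 84, and p53 KO libraries 278, 210 and 152. Levels were 4.02, 3.69 and 3.46 CPM in parental, 2.65, 4.18 and 3.20 CPM in Ctrl and 9.33, 7.99 and 7.54 CPM in p53 KO cells, so the lowest p53 KO library was above the highest control library. The means were 3.72 ± 0.280, 3.34 ± 0.774 and 8.28 ± 0.928 (SD, n = 3). The ratio was 2.24 against parental (95% counting interval 1.95 to 2.59; fitted log2 fold change 1.16, SE 0.16) and 2.45 against Ctrl cells (2.11 to 2.84; 1.29, SE 0.16). Counts were made per gene, so the splice forms of CEACAM1 with a long or a short tail were not separated.

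CEACAM19 was also present in every library. It had 65, 56 and 57 counts in parental, 38, 39 and 34 in Ctrl and 140, 105 and 89 in p53 KO libraries, or 2.49, 2.15 and 2.63, then 1.94, 1.37 and 1.30, then 4.70, 3.99 and 4.42 CPM. The 3 groups did not overlap, with Ctrl lowest, parental in between and p53 KO highest, and the means were 1.53 ± 0.351, 2.42 ± 0.244 and 4.37 ± 0.354 (SD, n = 3). The p53 KO level was 1.82 times the parental level (95% counting interval 1.51 to 2.19; fitted log2 fold change 0.85, SE 0.16) and 2.93 times the Ctrl level (2.36 to 3.67; 1.53, SE 0.17).

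**Figure D1:**
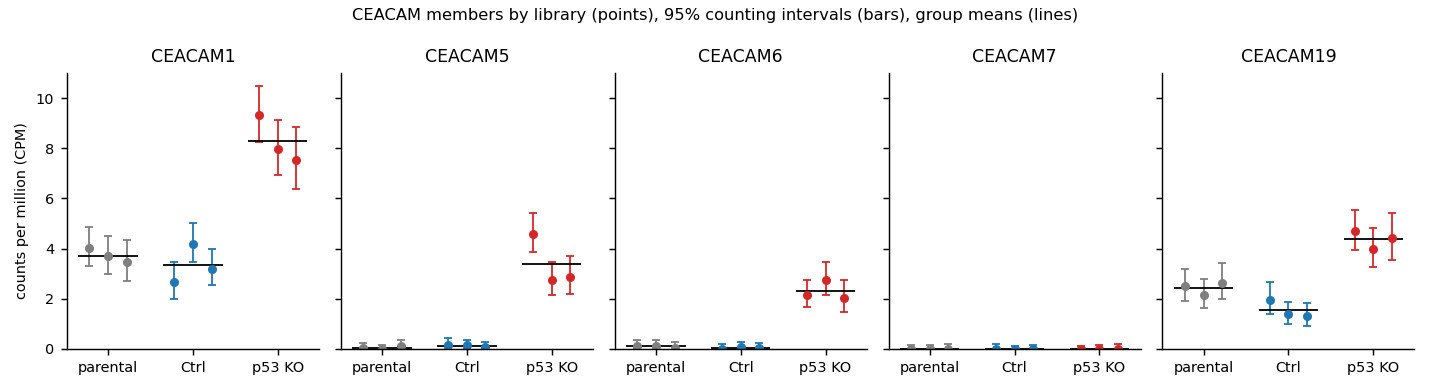
Level of the 5 CEACAM genes in each library, in CPM on a linear axis that starts at 0, with 1 panel per gene and the groups parental, Ctrl and p53 KO along the horizontal axis. Points are libraries, vertical bars 95% counting intervals and horizontal lines group means. In CEACAM5 the p53 KO libraries sit at 2.74 to 4.60 CPM and in CEACAM6 at 2.03 to 2.74 CPM with all other libraries near 0, while CEACAM1 and CEACAM19 start from a level that is already present and CEACAM7 stays at 0.

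All 4 detected members had their 3 p53 KO libraries above all 6 control libraries, as did 11.9% of the genes tested. Nothing is read from this count, since the choice of genes used the same contrasts. Beyond a log2 fold change of 1.5 lay CEACAM5 and CEACAM6 in both comparisons and CEACAM19 in that with Ctrl cells. The CEACAM19 value was 1.53 and ranged from 1.42 to 1.71 when a library was left out, so its place beyond 1.5 rested on single libraries. Called by an adjusted p of at most 0.05 and a log2 fold change above 1.5 were 1.23% of genes against parental and 2.18% against Ctrl cells. Against parental cells 9 genes had a larger fitted increase than CEACAM5, 17 than CEACAM6, 283 than CEACAM1 and 472 than CEACAM19, of 14513. Against Ctrl cells these numbers were 54, 40, 414 and 313. The median fitted log2 fold change over all genes was 0.0065 and 0.0060.

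Whether the genes also differed between the kinds of cells that both keep mutant p53 was tested in Ctrl against parental cells, a contrast that did not choose the members but shares its libraries with the other comparisons. In the quasi-likelihood test of edgeR, adjusted by the Benjamini-Hochberg method over 14513 genes, 9.69% of genes fell and 10.6% rose. CEACAM1 and CEACAM19 had counts in both groups, and CEACAM19 passed. It fell in Ctrl cells, with a log2 fold change of -0.68 (SE 0.18, adjusted p = 0.0258) and a ratio of 0.619 (95% counting interval 0.484 to 0.790). All 3 Ctrl libraries were below all 3 parental libraries, as in 21.7% of the genes tested. The call rested on single libraries, as the edgeR adjusted p was 0.0885 without parental replicate 1, 0.0886 without parental replicate 3, 0.0810 without Ctrl replicate 2 and 0.0563 without Ctrl replicate 3, and it was 0.00655 without Ctrl replicate 1.

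CEACAM1 had a log2 fold change of -0.14 in Ctrl against parental cells (SE 0.17, edgeR adjusted p = 0.571) and a ratio of 0.918 (0.771 to 1.09). Its groups overlapped, and Ctrl replicate 1 was both the lowest of the 9 libraries and the library that stood apart. Without that library the log2 fold change was -0.01 (edgeR adjusted p = 0.971). CEACAM5 and CEACAM6 passed the filter on low counts only through their p53 KO libraries, so no test is given for them here. CEACAM5 had 9 counts in Ctrl against 3 in parental cells, a ratio of 2.98 with a counting interval of 0.744 to 17.1, and CEACAM6 had 3 against 7 counts. At these counts a difference between the control groups in CEACAM5 or CEACAM6 was not detectable.

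Without Ctrl replicate 1 the log2 fold changes of p53 KO against Ctrl cells were 1.17 for CEACAM1, 4.91 for CEACAM5, 5.28 for CEACAM6 and 1.71 for CEACAM19.

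To set the genes beside each other, levels were divided by the exon length of each gene (5527 bases for CEACAM1, 3986 for CEACAM5, 2956 for CEACAM6 and 5173 for CEACAM19). In p53 KO cells CEACAM1 led with 1.69, 1.45 and 1.36 CPM per kb. CEACAM5 followed with 1.15, 0.687 and 0.722, CEACAM19 with 0.908, 0.772 and 0.854, and CEACAM6 with 0.726, 0.926 and 0.688 CPM per kb. Each CEACAM1 value was above all of the others, while the ranges of CEACAM5, CEACAM19 and CEACAM6 overlapped and their order is not established.

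The order was different in the control groups. Parental libraries held 0.626 to 0.727 CPM per kb of CEACAM1, 0.416 to 0.508 of CEACAM19, 0.0156 to 0.0390 of CEACAM6 and 0 to 0.0231 of CEACAM5. In Ctrl libraries CEACAM1 was at 0.480 to 0.756 and CEACAM19 at 0.251 to 0.375 CPM per kb, with CEACAM5 at 0.0191 to 0.0384 and CEACAM6 at 0 to 0.0238. CEACAM1 stood above CEACAM19 and both above the GPI-anchored pair, within which the ranges overlapped.

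Among the 14397 genes that passed the filter on low counts and had a length, CEACAM5 moved from percentile 0.208 of levels per kb in parental and 1.11 in Ctrl to 22.8 in p53 KO cells, and CEACAM6 from 0.653 and 0.472 to 21.6. CEACAM1 was at percentile 19.9, 18.6 and 30.7 and CEACAM19 at 15.4, 11.2 and 22.7. Even in p53 KO cells each of these members thus lay below the median of the genes that passed the filter, which was 4.13 CPM per kb there, 4.20 in parental and 4.09 in Ctrl cells. Genes that did not pass, many of them at 0, are not in this ranking.

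**Figure D2:**
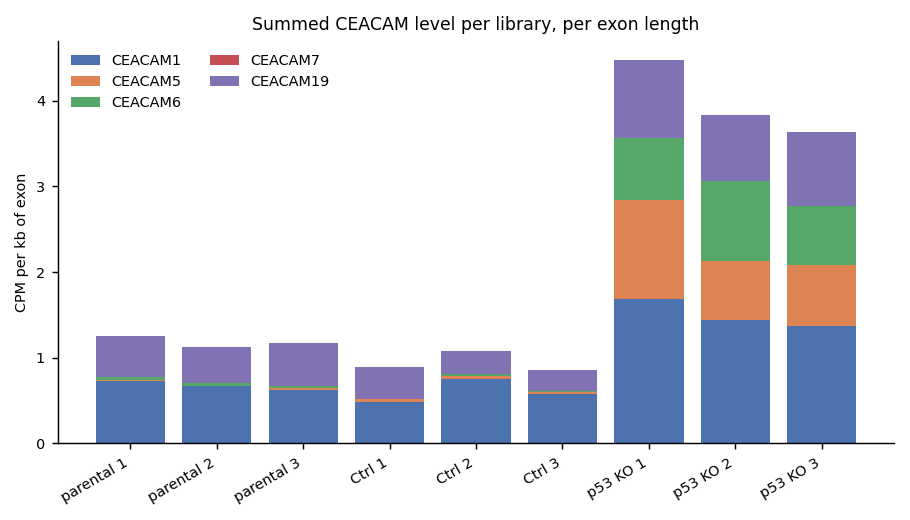
Summed level of the CEACAM genes in each library, in CPM per kb of exon on an axis that starts at 0, stacked by gene. Parental bars reach 1.12 to 1.26, Ctrl bars 0.862 to 1.08 and p53 KO bars 3.63 to 4.47, and the segments of CEACAM5 and CEACAM6 are visible mainly in p53 KO cells.

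The summed level of the members per kb was 1.26, 1.12 and 1.17 CPM in parental, 0.893, 1.08 and 0.862 in Ctrl and 4.47, 3.83 and 3.63 in p53 KO libraries. CEACAM5 and CEACAM6 together made up 3.30% to 3.86% of it in parental, 3.72% to 5.46% in Ctrl and 38.9% to 42.1% in p53 KO libraries. The share of CEACAM1 within p53 KO cells was 37.6% to 37.7%. It rests on 278, 210 and 152 counts of CEACAM1, so nothing is read from how close these shares are. The GPI-anchored pair divided its share differently between libraries, since CEACAM6 stood at 0.630 of the CEACAM5 level per kb in p53 KO replicate 1, at 1.35 in replicate 2 and at 0.953 in replicate 3. CEACAM5 also varied most across the p53 KO libraries, with a coefficient of variation of 30.4% against 16.4% for CEACAM6, 11.2% for CEACAM1 and 8.10% for CEACAM19.

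Exact sequence of read length was shared with other genes only to a small extent, and matches with mismatches were not counted. Of all stretches of 75 bases in their transcripts, the read length, 2.20% in CEACAM5, 2.78% in CEACAM6, 1.42% in CEACAM1 and 0.858% in CEACAM19 also occur in transcripts of another gene. For CEACAM5 and CEACAM6 these were mostly a readthrough gene that joins them (ENSG00000267881) and in small part CEACAM3 and CEACAM8, all of which had 0 counts in every library. CEACAM1 overlaps the antisense RNA LIPE-AS1 over 185 exon bases, 3.35% of its own, and LIPE-AS1 had 30 to 34 counts in parental, 35 to 44 in Ctrl and 36 to 57 in p53 KO libraries (log2 fold change against parental 0.51, SE 0.16, edgeR adjusted p = 0.0532). The strand and multi-mapping settings of the counting are not given in the sources used here, so how shared reads were assigned is not known. CEACAM19 overlaps exons of PVR, the poliovirus receptor gene, by 121 bases, 2.34% of its exons, and PVR had a log2 fold change of -0.14 against parental (edgeR adjusted p = 0.185) and -0.19 against Ctrl cells (edgeR adjusted p = 0.0583).

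The rest of the family was at or near 0 counts. Of 30 other CEACAM and PSG genes and pseudogenes, where PSG genes encode pregnancy-specific glycoproteins of the same family, 21 had 0 counts in all libraries, 7 never exceeded 3 counts and none passed the filter. CEACAM3, CEACAM4, CEACAM8, CEACAM16 and CEACAM21 were at 0 throughout. All 30 together had 8 to 22 counts per library. The exceptions above 3 counts were the pseudogene CEACAM22P, with 1 to 8 counts, and PSG5, with 9, 8 and 9 counts in parental, 5, 10 and 9 in Ctrl and 1, 4 and 2 in p53 KO libraries. PSG5, named after its counts were seen, was lower in p53 KO cells when no filter was applied, with -1.88 on the log2 scale against parental (edgeR adjusted p = 0.0270) and -1.74 against Ctrl cells (edgeR adjusted p = 0.0388).

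Genes around the members on chromosome 19 were compared next. Within 500 kb of a member lay 124 other genes, 42 of them at 0 counts, and 50 were tested. Against parental cells 1 rose and 5 fell, where 9.77% of all genes rose and 8.36% fell, and against Ctrl cells 4 rose and 6 fell, where 29.2% of all genes passed in either direction and 14.2% fell. The median log2 fold change of the 50 was 0.03 and -0.07, beside 0.0065 and 0.0060 over all genes. With no Ctrl replicate 1 the number that passed against parental cells went from 6 to 12.

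The 4 tested genes whose nearest member was CEACAM6 were RPS19, ARHGEF1, RABAC1 and ZNF574, at 88.0 to 296 kb from it, and none passed the test in either comparison, with log2 fold changes of 0.09 to 0.40 against parental and -0.29 to 0.19 against Ctrl cells. On the side of CEACAM7, of 12 genes tested, 0 rose and 2 fell against parental cells and 2 rose and 2 fell against Ctrl cells. Around CEACAM1 1 of 12 rose and 2 fell against parental cells, and 0 rose and 1 fell against Ctrl cells. Around CEACAM19 0 of 22 rose and 1 fell against parental cells, and 2 rose and 3 fell against Ctrl cells.

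BCAM, a laminin receptor of the immunoglobulin superfamily 125 kb from CEACAM19, fell in p53 KO cells. It had 2627, 2497 and 1995 counts in parental, 2723, 3920 and 3290 in Ctrl and 940, 704 and 633 in p53 KO libraries, a log2 fold change of -1.69 (SE 0.09, edgeR adjusted p = 1.19e-06) against parental and -2.16 (SE 0.09, edgeR adjusted p = 6.26e-08) against Ctrl cells. Its p53 KO libraries lay below all controls, the opposite of CEACAM19.

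B3GNT8, a glycosyltransferase that extends N-glycans, lies 245 kb from CEACAM7. It had 8 to 15 counts in parental and 14 to 30 in Ctrl libraries, and 1 count in each p53 KO library. B3GNT8 thus passed the filter on low counts only through its control libraries. Its drop in p53 KO cells is therefore a description, and no p-value is given. B3GNT8 is still among the falling neighbours counted above, in all and on the side of CEACAM7. AXL, a receptor tyrosine kinase, fell against parental cells by 0.46 (edgeR adjusted p = 0.00392) and rose against Ctrl cells by 0.26 (edgeR adjusted p = 0.0477) on the log2 scale. DEDD2, a death effector domain protein, rose against parental cells by 0.41 (edgeR adjusted p = 0.0153), with 0.22 against Ctrl cells (edgeR adjusted p = 0.129).

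**Figure D3:**
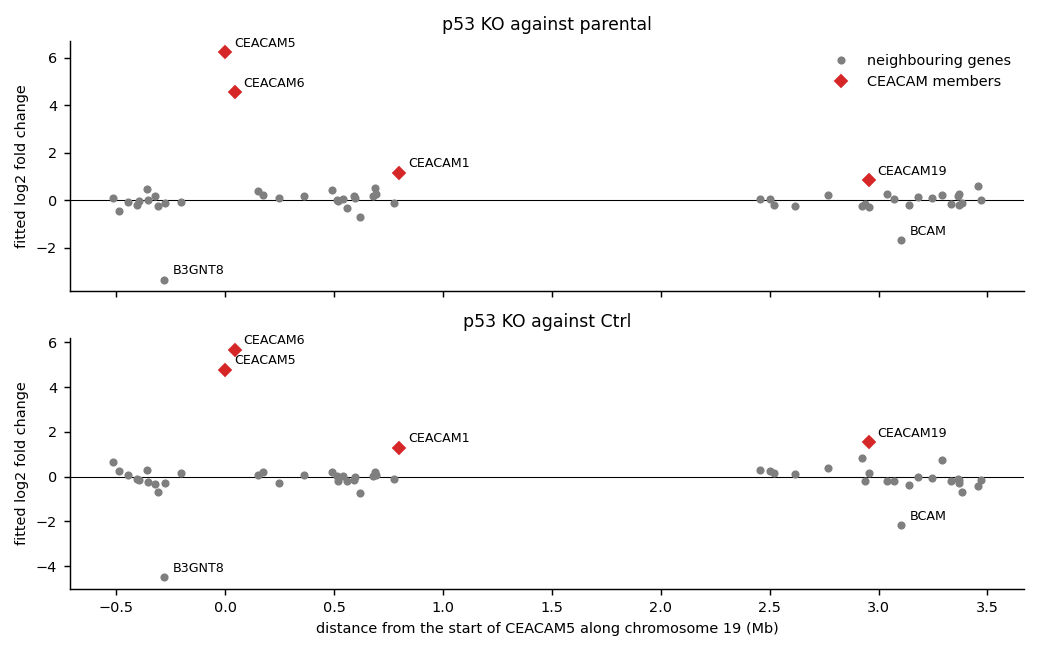
Fitted log2 fold change of the tested genes within 500 kb of a CEACAM member against their distance in Mb from the start of CEACAM5, for p53 KO against parental and against Ctrl cells. Diamonds are the 4 CEACAM members and circles the 50 neighbouring genes. CEACAM5 and CEACAM6 stand at 4.54 to 6.24 while the 4 genes nearest to CEACAM6 lie between -0.29 and 0.40, and the low points are BCAM and B3GNT8, the latter fitted on 1 count per p53 KO library.

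CEACAM5, CEACAM6 and CEACAM7 need a GPI anchor to reach the surface, and genes for its synthesis, transfer and release were measured as a list. Of 30 genes 29 were tested. Against parental cells 0 rose and 1 fell (over all genes 9.77% rose and 8.36% fell), with a median log2 fold change of 0.04, and against Ctrl cells 1 rose and 6 fell (over all genes 29.2% passed and 14.2% fell), with a median of -0.19. PIGX, a part of the first mannosyltransferase of the anchor, fell in both, by 0.56 (SE 0.07, edgeR adjusted p = 4.08e-04) and by 0.84 (SE 0.07, edgeR adjusted p = 1.12e-05) on the log2 scale, and had 969 to 1159 counts in parental, 1056 to 1544 in Ctrl and 639 to 841 in p53 KO libraries. Without p53 KO replicate 1 the 7 genes that passed against Ctrl cells became 4, and without Ctrl replicate 3 they became 11, while the 1 that passed against parental cells became 4 without Ctrl replicate 1.

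Known partners of CEACAM proteins and kinases, integrins and adaptors that act below them formed a list of 25 genes, of which 21 were tested. Against parental cells 1 rose and 7 fell, where 9.77% and 8.36% of all genes did, with a median log2 fold change of -0.19. Against Ctrl cells 4 rose and 7 fell, where 29.2% of all genes passed and 14.2% fell, with a median of 0.02. Leaving out Ctrl replicate 1 raised the number that passed against parental cells from 8 to 13.

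Of 3 integrin chains tested, ITGB1 and ITGAV fell against parental cells and ITGA5 did not pass, with a log2 fold change of 0.10 (edgeR adjusted p = 0.374) and of 0.20 against Ctrl cells (edgeR adjusted p = 0.0577). ITGB1, the beta1 integrin chain, fell by 0.75 on the log2 scale against parental (SE 0.11, edgeR adjusted p = 0.00112) and by 0.61 against Ctrl cells (SE 0.11, edgeR adjusted p = 0.00197). PTK2, the focal adhesion kinase, fell by 0.59 (SE 0.08, edgeR adjusted p = 4.5e-04) and by 0.61 (SE 0.08, edgeR adjusted p = 1.75e-04). ITGAV, the alphaV integrin chain, fell by 0.87 against parental cells (SE 0.27, edgeR adjusted p = 0.0497), and its log2 fold change against Ctrl cells was -0.31 (edgeR adjusted p = 0.428). Ctrl replicate 1 had 1019 counts of ITGAV where the other Ctrl libraries had 3573 and 3547.

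SRC family kinases, which phosphorylate the CEACAM1 tail, went in different directions. LYN fell by 0.43 against parental (edgeR adjusted p = 0.00186) and by 0.38 on the log2 scale against Ctrl cells (edgeR adjusted p = 0.00221), and SRC, with 0.13 in both, did not pass (edgeR adjusted p = 0.195 and 0.141). LCK counts were higher in p53 KO cells. They were 6, 4 and 7 in parental, 1, 0 and 2 in Ctrl and 28, 22 and 18 in p53 KO libraries. With at most 7 counts in a control library, LCK passed the filter (minimum count 10) only through its p53 KO libraries. Its fitted rise over parental libraries, 1.93 on the log2 scale (SE 0.35), is therefore a description, and no p-value is given. LCK is still among the rising genes counted for this list above. FYN was ordered differently in the control groups, falling by 0.83 against parental (SE 0.14, edgeR adjusted p = 0.00184) and rising by 0.67 against Ctrl cells (SE 0.15, edgeR adjusted p = 0.00631). PTPN6, the phosphatase that CEACAM1 recruits, had 399 to 570 counts in parental, 911 to 1100 in Ctrl and 453 to 648 in p53 KO libraries and is given here for that role, outside the rule for named genes, as are ITGA5, LYN and SRC. Its log2 fold change was 0.11 against parental (edgeR adjusted p = 0.506) and -0.89 against Ctrl cells (edgeR adjusted p = 1.17e-04).

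Other adhesion molecules of the immunoglobulin superfamily changed in both directions. Of 40 genes 21 were tested, and 3 rose and 3 fell against parental cells (9.77% and 8.36% of all genes) while 2 rose and 8 fell against Ctrl cells (14.2% of all genes fell and 29.2% passed). The median log2 fold changes were -0.10 and -0.19. Without Ctrl replicate 1 the number that passed against parental cells was 11 instead of 6. SDK1, a homophilic adhesion molecule of synapses, rose from 13 to 23 counts in parental and 5 to 8 in Ctrl to 51 to 90 in p53 KO libraries, by a log2 fold change of 1.93 (SE 0.21, edgeR adjusted p = 1.62e-04) and 3.38 (SE 0.25, edgeR adjusted p = 4.61e-06). NFASC, neurofascin, rose from 6 to 16 counts in the controls to 34 to 44, by 1.82 (SE 0.25, edgeR adjusted p = 6.66e-04) and 1.93 (SE 0.26, edgeR adjusted p = 2.37e-04).

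In contrast to these, NEO1, the netrin receptor neogenin, fell by 0.89 and 0.86 on the log2 scale (edgeR adjusted p = 1.58e-04 and 7.72e-05), as did BCAM, which is also in this list. NECTIN4, a partner of adherens junctions, rose by 0.58 against parental cells (edgeR adjusted p = 0.00141) and fell by 0.52 against Ctrl cells (edgeR adjusted p = 0.00129). CADM4, a cell adhesion molecule of epithelia and glia, fell by 0.71 against parental cells (edgeR adjusted p = 2.4e-04), with -0.14 against Ctrl cells (edgeR adjusted p = 0.225).

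Factors known to act on CEACAM promoters or on the splicing of CEACAM1 were the last list, with 12 of 15 tested. Against parental cells 2 rose and 0 fell, with a median log2 fold change of 0.12, and a count of 2 in 12 is near the 9.77% of all genes that rose (8.36% fell). Against Ctrl cells 2 rose and 0 fell, with a median of 0.05, where 29.2% of all genes passed and 14.2% fell. USF1, which binds the E-box shown above, had a log2 fold change of 0.34 against parental (SE 0.10, edgeR adjusted p = 0.0327) and 0.05 against Ctrl cells (edgeR adjusted p = 0.734). IRF1, the interferon regulatory factor, had 0.38 (SE 0.11, edgeR adjusted p = 0.0317) and -0.07 (edgeR adjusted p = 0.68). The number that passed in either direction against parental cells was 0 when parental replicate 1, parental replicate 3 or any p53 KO replicate was left out, 1 without parental replicate 2 and 6 without Ctrl replicate 1. SOX9, named after its values were seen, rose by 1.21 against Ctrl cells (SE 0.10, edgeR adjusted p = 8.37e-06), with 0.25 against parental cells (edgeR adjusted p = 0.101).

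**Figure D4:**
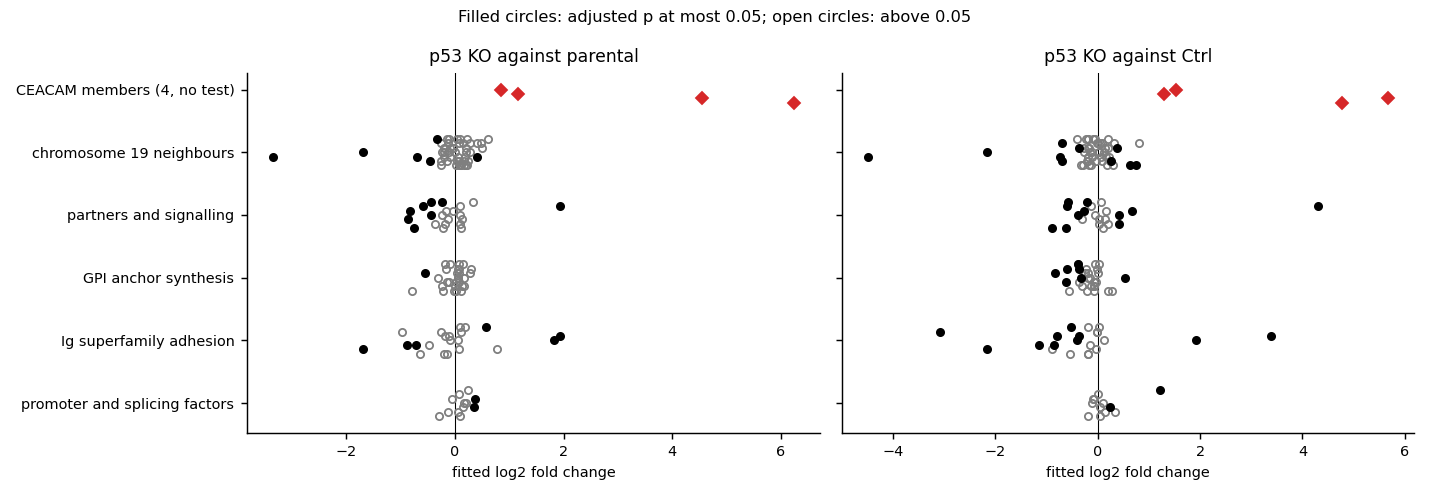
Fitted log2 fold change of the 4 CEACAM members and of each list of related genes, for p53 KO against parental and against Ctrl cells, with 1 row per list and 1 circle per gene. Filled circles have an edgeR adjusted p of at most 0.05 and open circles a higher one, and the members, drawn as diamonds, were not tested. List medians lie between -0.19 and 0.12, and the members at 0.85 or more.

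Last, the genes whose pattern over the 9 libraries was most like that of each member were found among all 14513, by the root mean square difference of log2 CPM centred on the mean of each gene. These likenesses follow the differences between the 3 groups and are a description over libraries that share groups. For CEACAM1 the closest were DDX58, which encodes the RNA sensor RIG-I (difference 0.159 log2 units, r = 0.966), the RNA gene RP11-73M7.1 (0.161, r = 0.964) and the helicase gene DDX60 (0.167, r = 0.965). DDX58 had 1429 to 1463 counts in parental, 765 to 1468 in Ctrl and 2325 to 3820 in p53 KO libraries, and like CEACAM1 it was lowest in Ctrl replicate 1.

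For CEACAM5 the closest were CNTNAP2 (difference 0.474, r = 0.976), BCL11B (0.595, r = 0.968) and GAS7 (0.595, r = 0.976), and for CEACAM6 they were BCL11B (0.388, r = 0.982), AC005307.5 (0.424, r = 0.977) and CNTNAP2 (0.466, r = 0.980). CNTNAP2, a neurexin family adhesion gene, had 0 counts in the 6 control libraries and 40 to 59 in p53 KO libraries. BCL11B, a zinc finger factor, had 0 and 23 to 35, and GAS7 at most 1 and 18 to 32. AC005307.5, like CEACAM6 on chromosome 19, had at most 2 and 28 to 46.

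CEACAM19 was closest to TYMP, thymidine phosphorylase (difference 0.111, r = 0.984), EGLN3, a prolyl hydroxylase (0.127, r = 0.982), and HLA-B, a class I histocompatibility gene (0.135, r = 0.989). TYMP had 548 to 661 counts in parental, 314 to 437 in Ctrl and 909 to 1209 in p53 KO libraries, the same order of groups as CEACAM19. Between the members r over the 9 libraries was highest for CEACAM1 with CEACAM6 (0.978) and lowest for CEACAM5 with CEACAM19 (0.815).

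**Figure D5:**
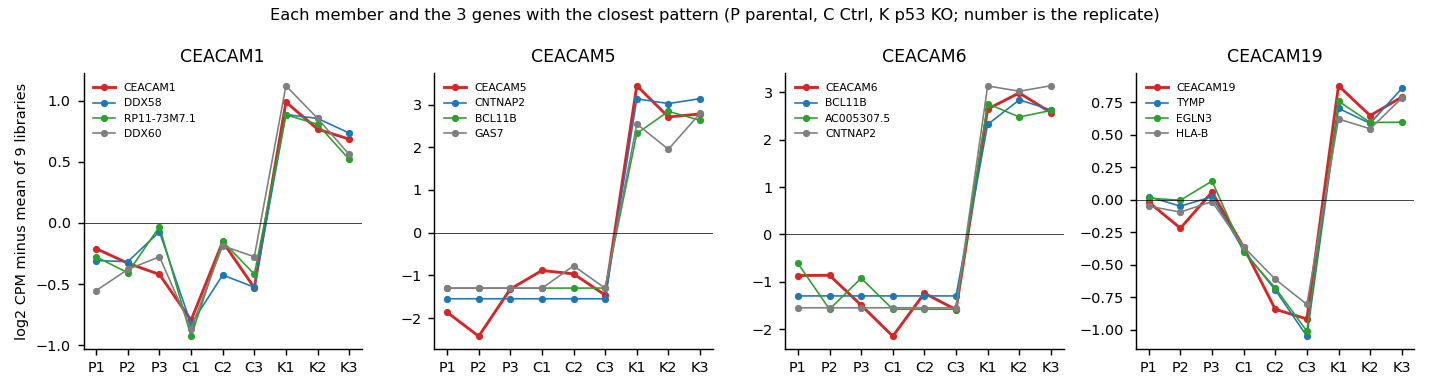
Level of each detected CEACAM member and of the 3 genes with the closest pattern, as log2 CPM minus the mean over the 9 libraries, in 4 panels with the libraries (P parental, C Ctrl, K p53 KO) along the horizontal axis and lines that only join the points of a gene. CEACAM5 and CEACAM6 and their nearest genes are below the mean in every P and C library and above it in every K library, CEACAM1 dips in C1, and CEACAM19 steps down from P to C before the rise in K.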

How the data were processed

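The authors aligned paired-end reads of 75 bases to GRCh38 with STAR 2.5.1b after FastQC, used featureCounts with Ensembl release 85 for gene counts and deposited these counts as they were, with no normalization (tools as in the submitters' processing notes, order from the study's methods). They tested the counts with DESeq2. Strand and multi-mapping settings are not given in the sources used here. All 58051 genes in 9 libraries are whole numbers, 30587 of them 0 everywhere, and totals were 19783778 to 29840452. Every column was matched to a library by its name.

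Counts were filtered with filterByExpr (minimum count 10), scaled by TMM and fitted in edgeR 4.0.16 (R 4.3.3) with 1 mean per group over all 9 libraries. Quasi-likelihood tests were adjusted by Benjamini-Hochberg over the 14513 genes tested, at 0.05. Standard errors follow from the F statistic and can be too small for genes with counts near 0 in a group. The methods were tested on simulated data. Ratios are of summed counts scaled by library, with exact 95% counting intervals. Gene spans and exon lengths came from GENCODE 44, promoter sequences from RefSeq (GRCh38.p14), and promoter identities from global alignment in Biopython 1.88. The prior count for log2 CPM was 2. Figures were drawn with matplotlib 3.10.9.

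The members, the lists and the tests were chosen with earlier results of these data known. Named were the 5 members, other CEACAM and PSG genes past the filter, up to 4 rising and 4 falling genes per list with the largest change against parental cells among those with an adjusted p of at most 0.05, and the 3 genes most like each detected member in pattern. Some genes that the rule covers are not reported here. Alternatives were DESeq2 1.42.0, its size factors in edgeR, a filter of 1 count in total or of 10 counts in each library, a block for the replicate number, fits of the 2 groups compared alone, and leaving out each library in turn.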

Additional observations from a re-analysis of the deposited data

How the results depend on the processing

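Of 324 alternative values 291 kept their direction and side of the threshold or moved by less than the spread, 28 moved and 5 lost their call, and none reversed. Leaving out a library moved the log2 fold change of CEACAM5 against parental cells between 5.66 and 7.16, that of CEACAM6 against Ctrl cells between 5.28 and 6.43, and that of CEACAM19 in Ctrl against parental cells between -0.85 and -0.57. With only the 2 groups compared in the fit, CEACAM19 in Ctrl against parental cells stayed at -0.68 but missed the threshold (adjusted p = 0.0581 from edgeR; 0.00655 to 0.0886 over its 15 alternatives). That fit also gave other numbers of list genes past the threshold against parental cells, namely 2 for GPI anchor genes, 13 for partners, 12 for immunoglobulin superfamily genes, 6 for promoter and splicing factors and 10 for neighbours, and against Ctrl cells 1 for the factors and 6 for the neighbours. The replicate block left 0 factors against parental cells and 4 GPI anchor genes against Ctrl cells. Same-numbered libraries correlated at -0.348 to 0.0409 in their deviations from group means, so no pairing by number was seen. With 3 libraries per group this cannot show that same-numbered libraries were handled apart. Without a filter 1 of the other CEACAM and PSG genes passed in each comparison. Leaving out a library gave 1 to 4 GPI anchor genes, 6 to 13 partners, 6 to 11 immunoglobulin superfamily genes, 0 to 6 factors and 4 to 12 neighbours against parental cells, and 4 to 11 GPI anchor genes and 6 to 13 neighbours against Ctrl cells. At least 10 counts in every library left CEACAM5, CEACAM6 and the other CEACAM and PSG genes without a value. The causes were not tested. Depth limits CEACAM5 and CEACAM6 in the control groups, where 3 to 9 counts per group leave wide intervals.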
